A study of Mus musculus with 76 samples.

Results

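The 12 Ezhip matKO 2-cell embryos of the series fell into 7 and 5 embryos that lay apart on the main axis of variation of their RNA. Ezhip encodes a protein that inhibits PRC2, the Polycomb complex that writes H3K27me3, and matKO means that the mother lacked the gene. The 7 carry the library numbers 42 to 48 and the 5 carry the numbers 37 to 41. They are 12 of 23 2-cell embryos and of 76 libraries in all, which also cover oocytes, blastocysts and extraembryonic ectoderm. Polyadenylated RNA was sequenced from each embryo or cell on its own. The labels give both sets as Ezhip matKO 2C embryos, with no difference in treatment or age between them. Which part of the gene was deleted, the father's genotype, the litter and the hour of collection are facts not given in the sources used here. The 7 comprised 2 female and 5 male embryos, and the 5 comprised 4 female and 1 male embryo. Wild-type (WT) 2C embryos (n = 11) and WT oocytes (n = 3) serve for comparison, with matKO oocytes (n = 4) set beside them.

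The embryos were chosen by their measured values, so every gene of these libraries was used by the choice. Differences between the 7 and the 5 are therefore given as a description, with no test. On the first principal component of the 12 embryos, which held 35.7% of the variance, embryos 42 to 48 lay between 26.4 and 105.4. Embryos 37 to 41 lay between -129.7 and -64.2. Embryo 43 was just inside the first set, at 26.4, and embryo 40 was the nearest of the second, at -64.2. In the first component over all 23 embryos the 7 lay between 57.4 and 121.5 and the 5 between -84.1 and -25.2. The WT embryos lay between -201.8 and 21, so the 5 lay within the WT range and the 7 outside it. The lowest WT embryo was number 26. The next lowest, number 27, was at -83.7, just above embryo 37 at -84.1.

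A mouse oocyte stores messenger RNA for the first days of development. These stored transcripts are stripped of their poly(A) tails and degraded during maturation and up to the 2-cell stage, through BTG4 and the CCR4-NOT deadenylase. The embryo's own genome becomes active in full at the 2-cell stage, first with a short burst of genes such as Zscan4, Usp17l, Tcstv and Zfp352, and with transcripts for ribosomes and energy metabolism.

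Several features of the libraries moved with the split. Library order and set coincide, so the part that order plays in any difference cannot be told apart from the set. Embryos 42 to 48 had 1.48 to 4.65 megacounts (M) in total, and embryos 37 to 41 had 4.19 to 11 M. The mean log2 total was lower in the 7 (difference -1.52, exact permutation test, two-sided, p = 0.00758, smallest possible 0.00253). With every library thinned to 1476150 counts, 14403 to 15681 genes were detected in the 7, and 13278 to 14173 in the 5. The share of females did not pass a test (2 of 7 against 4 of 5, Fisher's exact test, two-sided, p = 0.242). One WT embryo, number 26, stood apart from all others on the second component and had the fewest genes detected, 11141.

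The targeted gene was low in both sets. AU022751, the name of Ezhip in the files, had a median of 0 CPM (counts relative to the TMM-scaled library total, in the usual CPM unit) in embryos 42 to 48, with 0 in the lowest and 18.9 CPM in embryo 48, which had the most. In embryos 37 to 41 it had 1.01, 8.69, 2.42, 4.27 and 4.24 CPM, and WT embryos had 38.6 to 337 CPM with a median of 120 CPM. The highest of the 12 was thus under the lowest WT embryo. Transcripts of the oocyte and of the 2-cell stage were present. Gdf9, an oocyte growth factor, had 472 to 800 CPM in the 7 and 337 to 428 CPM in the 5. Zp3, a protein of the egg coat, had 202 to 282 CPM in the 7 and 339 to 581 CPM in the 5. Zfp352, a gene of the 2-cell stage, had 312 to 866 CPM in the 7 and 87.9 to 157 CPM in the 5.

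A gene was counted as apart when the mean log2 CPM of the 2 sets differed by at least 1 and their ranges did not overlap. Of 14506 genes kept, 1129 were apart and higher in the 7 (7.78%) and 1237 were apart and lower (8.53%). After thinning to equal depth the counts were 1115 and 1081, of which 975 and 1019 were genes of the first counts. Scaling by DESeq2 size factors moved the median difference of all genes to 0.19 log2 units, against 0.07, and the counts to 1358 higher and 988 lower. The share of apart genes that were higher was thus 57.9% under that scaling and 47.7% under the main one.

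Whether stored or embryonic transcripts separated the embryos was described with classes made from libraries that the split did not use. WT 2-cell embryos were tested against WT oocytes by edgeR's quasi-likelihood test, with a threshold of 0.05 on the adjusted p and 2 log2 units. Of 16620 genes, 2433 were lower in the embryos (14.6%) and 3099 were higher (18.6%). The first class is called lost here and the second gained, by their level in polyadenylated RNA. The lost class also takes in 6 of 12 cumulus and granulosa markers kept and the sperm marker Prm2. Not all of it need thus be RNA stored by the oocyte. Both tables hold raw counts, which were scaled together, and stage and table cannot be told apart in this test. Without a filter on low counts the first class held 3831 genes.

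Transcripts of the lost class stood higher in embryos 42 to 48. The class held 2433 genes, of which 1835 were kept in 2-cell embryos. The filter asks for enough counts in as many embryos as the smaller set holds. A gene could thus be kept through the 7 alone or the 5 alone, and the part of this filter was not tested. Of the 1835 genes, 275 were apart and higher (15%, against 7.78% of all genes) and 21 were apart and lower (1.14%, against 8.53%). The median difference was 1.10 log2 units, and 79.7% of these kept genes lay above 0. Gained transcripts went the other way, with 80 of 2962 apart and higher (2.7%), 485 apart and lower (16.4%), and a median of -0.62. Genes in neither class had a median of 0.09. The median level of the lost class lay between 3.17 and 3.58 log2 CPM in the 7, between 2.33 and 2.81 in the 5, and between -1 and 3.19 in WT embryos. WT embryo 26 alone was at -1, and the other WT embryos lay at 2.57 to 3.19. All of the 5 but embryo 40, at 2.81, lay under those others. The 7 and the 5 did not overlap, and the WT embryos reached into the range of the 7 with embryo 29 alone. Relative to WT oocytes, on a scale shared by both stages, the median gene of the lost class stood at -2.64 log2 units in the 7, -3.46 in the 5 and -3.16 in WT 2-cell embryos. In matKO oocytes it stood at -0.07. The gained class stood at 2.22 in the 7, 2.76 in the 5, 2.50 in WT 2-cell embryos and 0.03 in matKO oocytes. In an embryo library, fewer molecules of a gene and more RNA of other genes cannot be told apart.

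**Figure D1:**
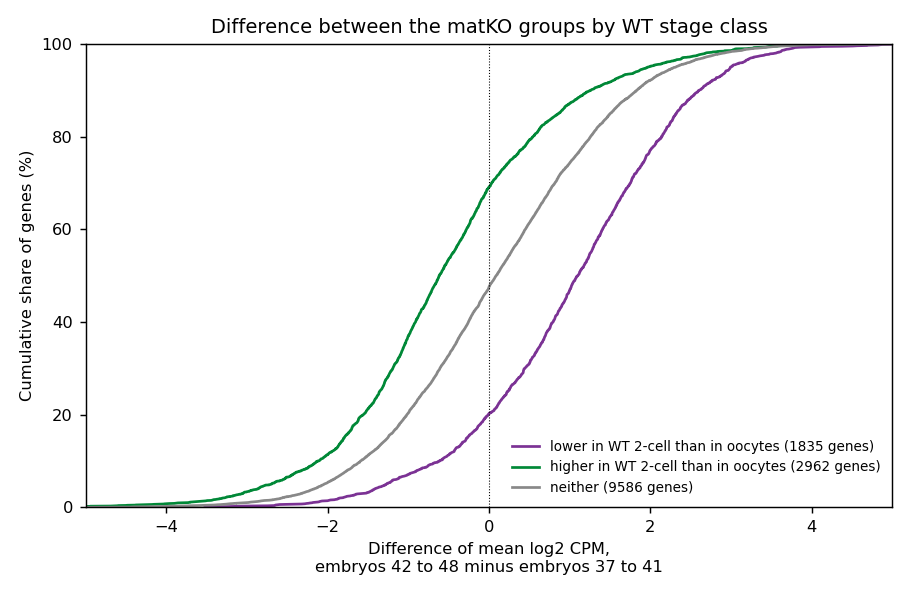
Cumulative share of genes (y axis, %) against the difference of mean log2 CPM, embryos 42 to 48 minus embryos 37 to 41 (x axis), for genes lower in WT 2-cell embryos than in oocytes, higher, or neither. The curve of the lost class lies to the right, with a median of 1.10, and that of the gained class to the left, with a median of -0.62.

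Wee2, a meiotic regulator of the lost class, had one of the 10 highest differences. The gene, an oocyte kinase that inhibits CDK1 and holds meiotic arrest, had 355 CPM in the lowest, a median of 754 and 1050 CPM in the highest of embryos 42 to 48. The level was 11.7, 24.7, 22.6, 79.9 and 12 CPM in embryos 37 to 41, and WT embryos had 15.6 to 201 CPM with a median of 118. Every one of the 7 lay above every embryo of the 5 and of WT, and the difference between the sets was 4.85 log2 units. On the scale shared with oocytes Wee2 averaged 685 CPM ± 253 (SD, n = 7) in the 7, 29.3 ± 27.2 (SD, n = 5) in the 5, 113 ± 61.9 (SD, n = 11) in WT 2-cell embryos and 519 ± 37.3 (SD, n = 3) in WT oocytes. Fbxo43, or EMI2, which keeps the egg in metaphase by inhibiting the anaphase-promoting complex, was higher by 1.69. Plk4, the kinase of centriole duplication, and Marf1, a regulator of oocyte RNA, were higher by 2.37 and 1.71. Fbxo43, Plk4 and Marf1 are in neither the lost nor the gained class. Of 36 meiotic and mitotic regulators kept, 5 were apart and higher and 1 was apart and lower, Cdc20, against 7.78% and 8.53% of all genes. The median difference over the list was 0.32.

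Genes of the subcortical maternal complex and other maternal effect genes, which the early embryo needs from the egg, had 8 of 28 members apart and higher and 0 apart and lower. Their median difference was 0.93, against 0.07 over all genes, and 19 of the 28 belong to the lost class. Rfpl4, an oocyte RING finger gene, had 99.3 to 452 CPM in embryos 42 to 48 with a median of 253. Embryos 37 to 41 had 11.7, 18.7, 11.3, 15 and 1.78 CPM, and WT embryos had a median of 74.6 CPM. The 5 all lay under the WT median of Rfpl4 and the 7 all above the highest WT embryo. Tcl1, a cofactor of the AKT kinase needed for early cleavage, had 1410 to 4280 CPM in the 7 with a median of 3010, and 347, 477, 380, 1060 and 391 CPM in the 5. WT embryos, with a median of 474 CPM, were near the 5 in Tcl1. Bcl2l10, an oocyte member of the BCL2 family, was higher by 2.51. Nlrp4f and Zbed3, further maternal genes, were higher by 2.12 and 2.20. Oosp3, an oocyte-secreted protein, led the oocyte growth factor and zona genes at 2.89. In that list 2 of 16 were apart and higher and 1 was apart and lower, against 7.78% and 8.53% of all genes, and the median was 0.88. Its lower member was Zp3, at -1.01, and it was not apart under DESeq2 size factors. Gdf9 was higher by 0.74 and did not reach the difference asked for.

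Of 30 genes kept for the storage and removal of maternal RNA, 8 were apart and higher in embryos 42 to 48 and 0 apart and lower, against 7.78% and 8.53% of all genes. The median difference was 0.93, and 21 of the 30 were above 0. Btg4, the adaptor that brings the CCR4-NOT deadenylase to maternal messages, had 1070 to 2410 CPM in the 7 with a median of 1740. In embryos 37 to 41 it had 265, 288, 415, 563 and 270 CPM, and WT embryos had 255 to 735 CPM with a median of 543. All of the 7 lay above every WT embryo, and the 5 lay in the WT range. Cnot7, a catalytic subunit of the deadenylase, had 729 to 1240 CPM in the 7 with a median of 1060, and 246, 234, 255, 466 and 239 CPM in the 5. Cnot6l, another catalytic subunit, was higher by 1.78. Dazl, which binds and activates stored messages in the oocyte, was higher by 2.44. On the shared scale Btg4 averaged 1570 CPM ± 427 (SD, n = 7) in the 7, 351 ± 120 (SD, n = 5) in the 5, 491 ± 138 (SD, n = 11) in WT 2-cell embryos and 966 ± 282 (SD, n = 3) in WT oocytes. Dazl averaged 175 ± 49.7 (SD, n = 7) in the 7, 38.6 ± 25 (SD, n = 5) in the 5, 83.1 ± 45.9 (SD, n = 11) in WT 2-cell embryos and 750 ± 151 (SD, n = 3) in WT oocytes. The mean of Btg4 in the 7 was thus above that of WT oocytes, and the mean of Dazl below it.

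**Figure D2:**
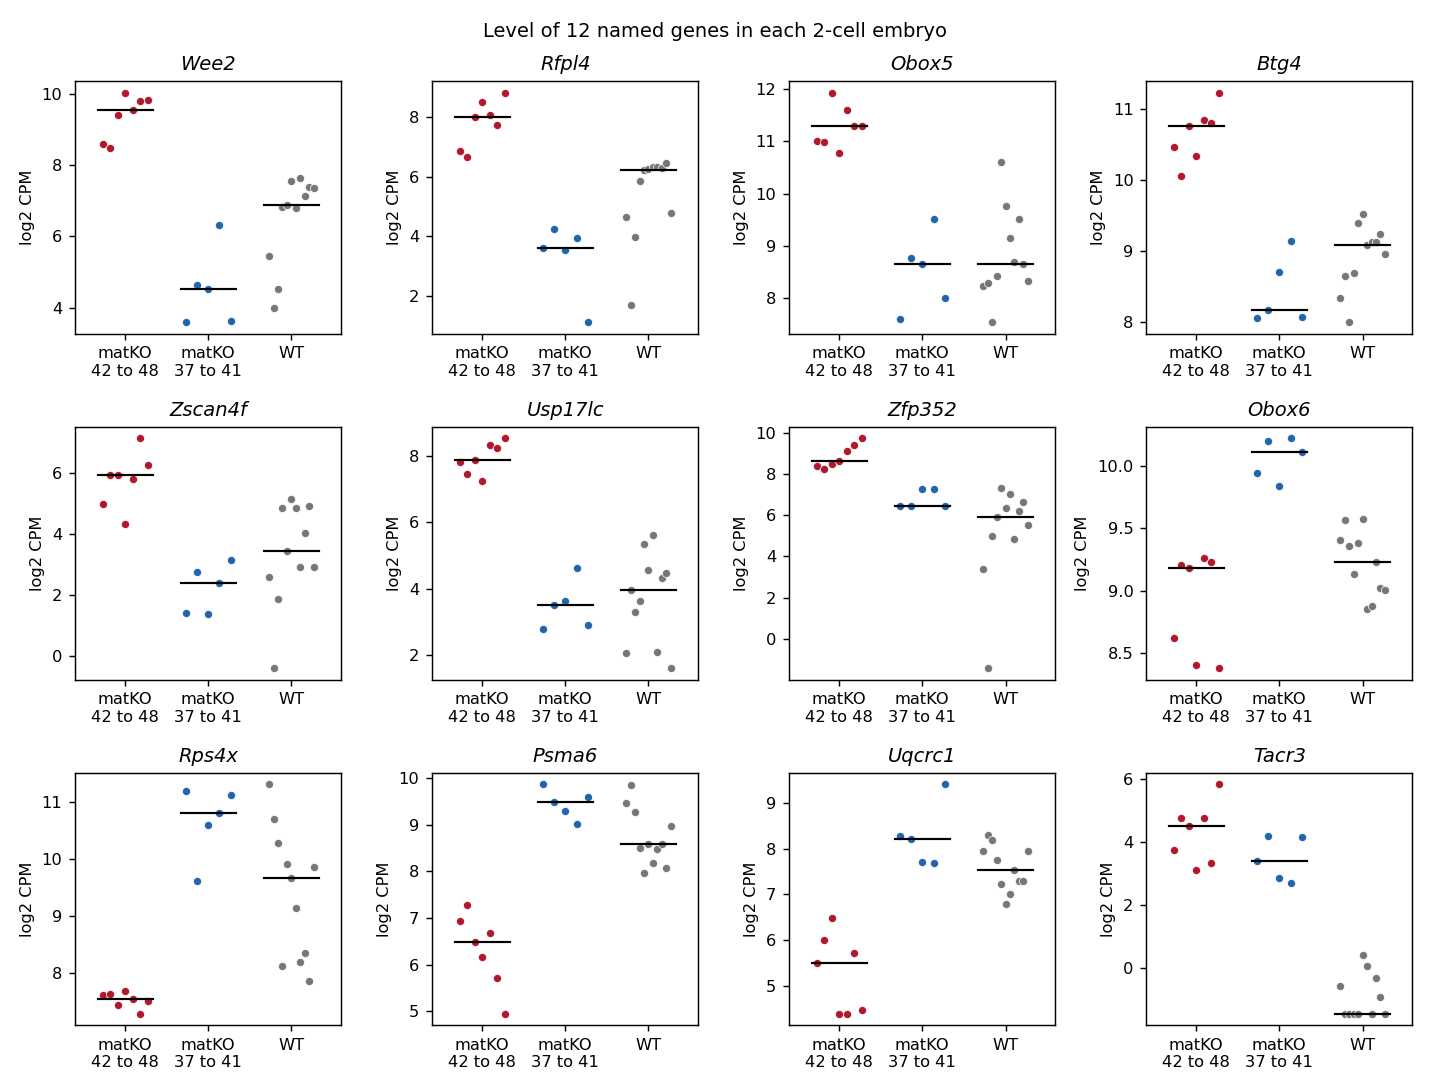
Level of 12 genes (y axes, log2 CPM) in each of 7 matKO embryos 42 to 48, 5 matKO embryos 37 to 41 and 11 WT 2-cell embryos, 1 point per embryo in order of library number, with a bar at the median. For Wee2, Obox5 and Btg4 the 7 lie above the rest, and for Psma6 and Uqcrc1 they lie below it, whereas Tacr3 was above WT in both matKO sets.

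The Obox homeobox genes, which encode factors of genome activation in the mouse, differed between the sets in both directions. Their copies are alike in sequence, so counts of single members are uncertain. Of 9 kept, 4 were apart and higher and 2 apart and lower, against 7.78% and 8.53% of all genes. Obox5 had 1750 to 3900 CPM in embryos 42 to 48 with a median of 2490. The level was 193, 436, 405, 729 and 255 CPM in embryos 37 to 41, and WT embryos had a median of 405 CPM. Obox1, Obox2 and Obox7 were higher by 2.08, 1.40 and 1.32. Obox5, Obox1 and Obox2 belong to the lost class. Obox6 and Obox8, of the gained class, were apart and lower. Obox6 had 332 to 613 CPM in the 7 with a median of 582, and 988, 1180, 919, 1200 and 1110 CPM in the 5. WT embryos, at 461 to 765 CPM, lay under all of the 5 in Obox6. Obox8 was lower by 1.87 in the 7 (difference -1.87). Obox3 and Crxos, at 0.51 and -0.91, were not apart.

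Transcripts of the 2-cell burst were higher in embryos 42 to 48, against the direction of the gained class to which 31 of the 39 kept belong. Of these 39, 19 were apart and higher, 1 was apart and lower, Fbxo15, and the median difference was 1.91. Over all genes, 7.78% were apart and higher and 8.53% apart and lower. The mean level of the list lay between 5.63 and 6.94 log2 CPM in the 7, between 4.04 and 4.87 in the 5, and between 3.44 and 5.44 in WT embryos. All of the 7 lay above every WT embryo, while the 5 lay within the WT range. After thinning 16 were apart and higher. Most of these genes lie in multicopy families whose reads may be shared, so single members are uncertain. Usp17lc, a deubiquitinase gene, had 151 to 370 CPM in the 7 with a median of 234. Embryos 37 to 41 had 6.59, 11.1, 11.9, 24.2 and 7.12 CPM, and WT embryos had 2.69 to 49.1 CPM with a median of 15.2. Its difference was 4.43 log2 units, the highest of the list. Zscan4f, of a family that acts on telomeres in embryonic stem cells, had 20 to 141 CPM in the 7 with a median of 60.6, and 2.28, 6.36, 2.22, 4.95 and 8.49 CPM in the 5. Zscan4d was higher by 2.39, and Zscan4c had a difference of 2.69 but overlapping ranges, since embryo 45 of the 7 had 12.8 CPM and embryo 39 of the 5 had 31.5 CPM. Zscan4f and Zscan4d had WT medians of 10.6 and 42.9 CPM.

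For Zfp352, Tcstv3 and Usp17lb, chosen after their values were seen, the means of both sets were above the WT mean. Zfp352, a zinc finger gene of the 2-cell stage with no close family copies in the list, had 312 to 866 CPM in embryos 42 to 48 with a median of 404. In embryos 37 to 41 it had 87.9, 88.3, 157, 157 and 89 CPM, and WT embryos had 0 to 161 CPM with a median of 59.8. Against WT, the difference was 3.71 in the 7 and 1.64 in the 5. The range of the 5 overlapped that of WT. Tcstv3 had 3.27 in the 7 and 1.36 in the 5 against WT. Usp17lb had 2.32 in the 7 and 1.44 in the 5, and its ranges overlapped between the matKO sets. Of the 39 genes, 0 were called in the 5 against WT by the edgeR test described below, where 0.139% of all genes were called, so these values of the 5 are a description.

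The start-site windows of 3 of these genes are shown because the factors DUX, OBOX and NR5A2, which bind at 2-cell genes, have known core motifs. Windows are the 250 bases before the annotated start from RefSeq, build GRCm38.p6, and were at hand for 23 of the 2-cell genes listed. Capitals mark a DUX core (TGATTCAAT), an OTX and OBOX core (GGATTA), an NR5A2 core (AAGGTCA) or a TATA box (TATAAA), on either strand, with no overlap among them in these windows. Zscan4f lies at chr7:11397665-11397914 on the plus strand, Zscan4d at chr7:11166149-11166398 on the minus strand and Zfp352 at chr4:90218570-90218819 on the plus strand.
Zscan4f: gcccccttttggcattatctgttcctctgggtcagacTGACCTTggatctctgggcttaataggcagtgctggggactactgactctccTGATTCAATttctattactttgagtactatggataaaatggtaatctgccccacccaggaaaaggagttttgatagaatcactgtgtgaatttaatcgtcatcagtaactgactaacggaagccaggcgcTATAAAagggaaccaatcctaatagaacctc
Zscan4d: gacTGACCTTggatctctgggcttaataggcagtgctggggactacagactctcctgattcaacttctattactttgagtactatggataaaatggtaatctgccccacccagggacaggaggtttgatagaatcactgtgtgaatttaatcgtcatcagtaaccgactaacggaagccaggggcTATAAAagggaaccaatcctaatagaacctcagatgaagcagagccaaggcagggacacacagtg
Zfp352: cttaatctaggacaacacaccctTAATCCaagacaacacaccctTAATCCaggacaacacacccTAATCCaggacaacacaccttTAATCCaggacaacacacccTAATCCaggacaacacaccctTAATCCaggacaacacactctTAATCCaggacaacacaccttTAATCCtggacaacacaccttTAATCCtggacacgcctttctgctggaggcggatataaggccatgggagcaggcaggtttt
The Zscan4f window holds 1 DUX core, 1 NR5A2 core and 1 TATA box, and the Zscan4d window holds the last pair of these without the DUX core as spelled. The Zfp352 window holds 9 copies of the OTX and OBOX core and is the 1 window of 32851 with at least 8. The window of Usp17lc, which had the highest difference of the list, was also read and is not shown. It holds 0 DUX cores, 0 OTX and OBOX cores, 0 NR5A2 cores and 1 TATA box. Among all 32851 windows, 0.11% hold the DUX core, 6.25% the OTX and OBOX core, 4.08% the NR5A2 core and 12.4% the TATA box. Of 24 windows of the 2-cell genes, 3, 8, 4 and 7 hold them in that order. A match is a description of letters and not a bound site.

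**Figure D3:**
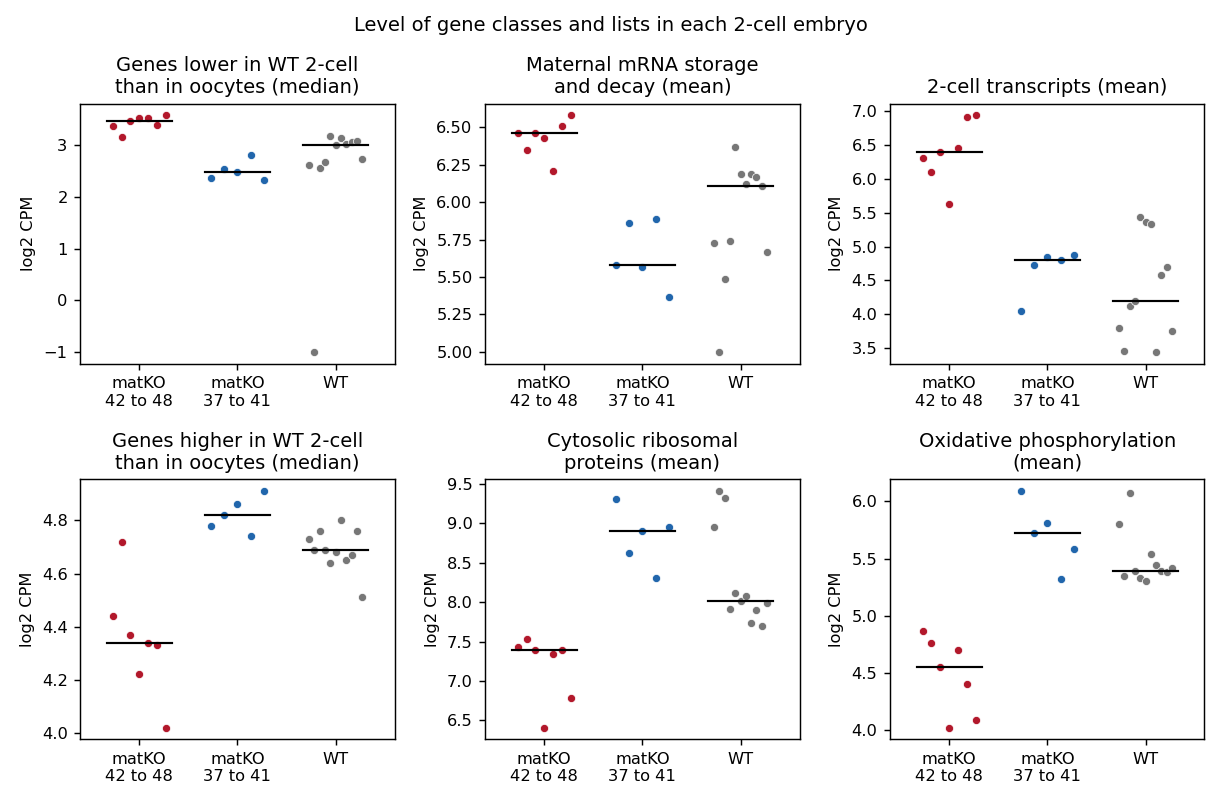
Level of gene classes and lists (y axes, log2 CPM; median or mean over genes as titled) in each of 7 matKO embryos 42 to 48, 5 matKO embryos 37 to 41 and 11 WT 2-cell embryos, 1 point per embryo in order of library number, with a bar at the median. The 7 lie above the 5 for the lost class, maternal RNA decay genes and 2-cell transcripts, and below them for the gained class, ribosomal proteins and oxidative phosphorylation.

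Transcripts for protein synthesis were lower in embryos 42 to 48. Of 85 genes of cytosolic ribosomal proteins kept, 59 were apart and lower and 0 apart and higher, against 8.53% and 7.78% of all genes. The median difference was -1.69. Of the 85, 5 belong to the gained class and 0 to the lost class. The mean level lay between 6.41 and 7.54 log2 CPM in the 7 and between 8.31 and 9.31 in the 5. WT embryos 25, 26 and 27, at 8.96, 9.41 and 9.32, lay with the 5, and the other 8 lay between the matKO sets, at 7.70 to 8.12. Rps4x, of the small subunit, had 156 to 205 CPM in the 7 with a median of 188. The level was 2320, 784, 1530, 1790 and 2220 CPM in embryos 37 to 41, and WT embryos had 232 to 2530 CPM. The 7 were close to one another in Rps4x and below every WT embryo. On the shared scale Rps4x averaged 177 CPM ± 15.9 (SD, n = 7) in the 7, 1690 ± 616 (SD, n = 5) in the 5, 872 ± 696 (SD, n = 11) in WT 2-cell embryos and 1270 ± 211 (SD, n = 3) in WT oocytes. Rpl14 and Rpl32, of the large subunit, were lower by 3.25 and 2.57 in the 7 (differences -3.25 and -2.57). Ribosomal protein genes have many processed pseudogenes, so single values are uncertain. They are also short, and gene length moved with the difference over all genes, from a median of -0.15 in the shortest 20% of genes to 0.35 in the longest 20%. The 49 ribosomal protein genes among the shortest had a median of -1.54 and the 36 others a median of -1.86. Level moved with it too, from a median of 0.23 in the lowest 20% of genes by mean CPM to -0.26 in the highest 20%. GC content of the longest transcript did so as well, from a median of 0.29 in the lowest 20% of genes to -0.07 in the highest 20%. The part of length, level and GC content was not tested. Under thinning and under DESeq2 size factors 53 were apart and lower.

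Ribosome assembly, the proteasome and respiration were lower as well. Of 36 genes of ribosome biogenesis, 10 were apart and lower and 0 apart and higher, against 8.53% and 7.78% of all genes. The median was -1.02. Heatr1, a factor of ribosomal RNA transcription, was lower by 2.08 (difference -2.08). Mybbp1a, a nucleolar protein, had 42.6 to 145 CPM in embryos 42 to 48 with a median of 117, against 308, 248, 255, 286 and 820 CPM in embryos 37 to 41. Polr1c, a subunit shared by RNA polymerases I and III, was lower by 1.63 (difference -1.63). Of 35 proteasome genes, 20 were apart and lower and 0 apart and higher, with a median of -1.60. Psma6, of the core particle, had 30.4 to 155 CPM in the 7 with a median of 89.3. Embryos 37 to 41 had 938, 716, 627, 520 and 772 CPM, and WT embryos had 249 to 928 CPM. All of the 7 lay below every WT embryo in Psma6, as they did in Psmb4, which differed by -2.50. Of 76 genes of oxidative phosphorylation, 27 were apart and lower and 0 apart and higher, with a median of -1.24. Of the 76, 0 belong to the gained class and 14 to the lost class. Uqcrc1, of respiratory complex III, had 20.5 to 89.6 CPM in the 7 with a median of 45.1, and 312, 297, 207, 206 and 681 CPM in the 5. Cox7c and Uqcrb, of complexes IV and III, had at most 2.41 and 2.05 CPM in the 7 and at least 12.9 and 10.9 CPM in the 5. Spliceosome and RNA polymerase II genes had 11 of 39 apart and lower, 0 apart and higher, and a median of -0.75. Of 19 glycolysis genes, 2 were apart and higher and 0 apart and lower, against 7.78% and 8.53% of all genes, and the median was 0.97. Ldha, which makes lactate, had 174 to 372 CPM in the 7 with a median of 222, against 63.9, 51, 45.3, 45.2 and 83.6 CPM in the 5.

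**Figure D4:**
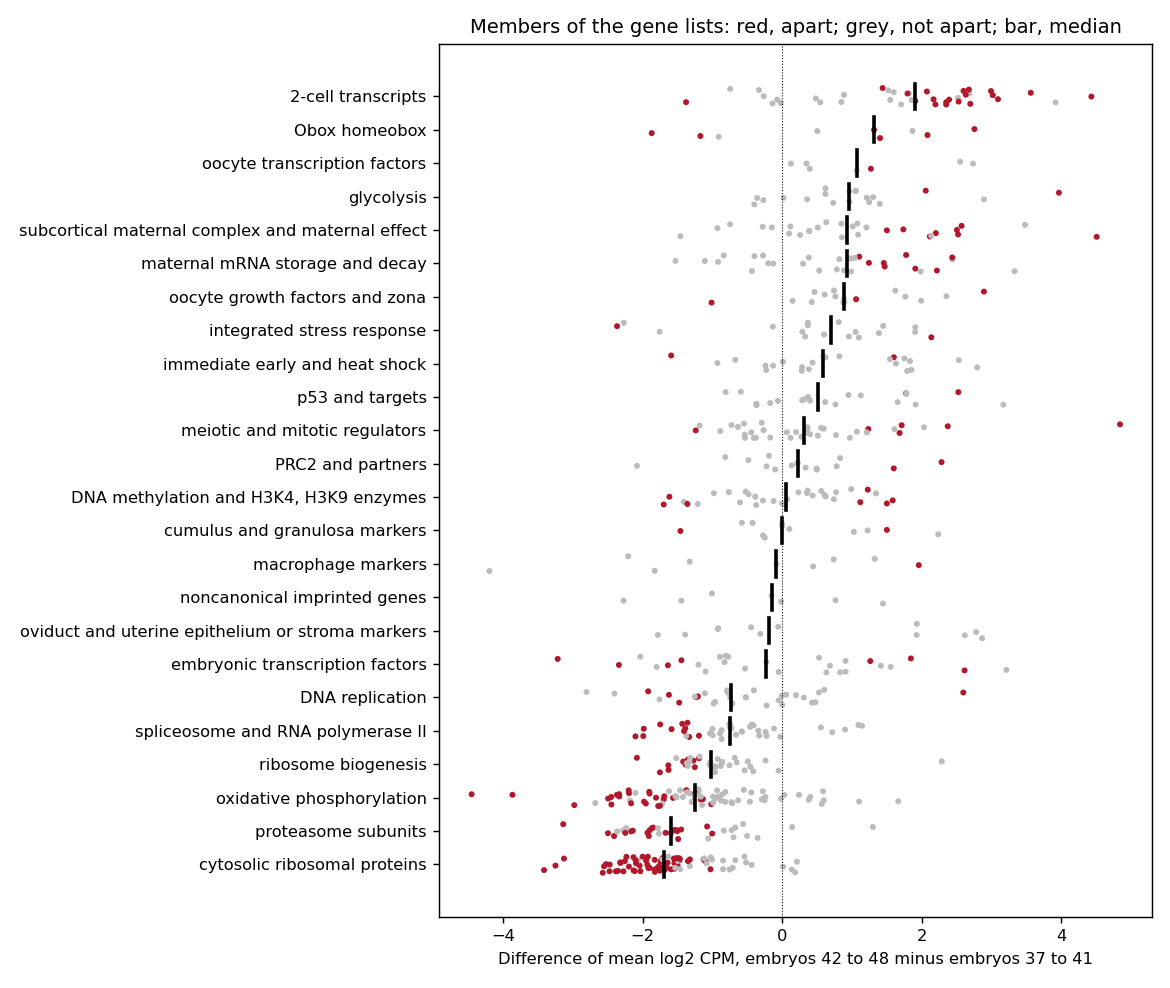
Difference of mean log2 CPM, embryos 42 to 48 minus embryos 37 to 41 (x axis), of each kept member of 24 gene lists (y axis). Red points are members that were apart, grey points those that were not, and bars are list medians, which run from -1.69 for cytosolic ribosomal proteins to 1.91 for 2-cell transcripts.

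Some genes were near 0 in one set. Nt5c, a nucleotidase, had a median of 0 and a highest value of 2.57 CPM in embryos 42 to 48. Embryos 37 to 41 had 57, 33.7, 56.4, 14.3 and 30 CPM of Nt5c, and WT embryos had 2.22 to 63.8 CPM. Tsr2, a chaperone of ribosomal protein RPS26, had at most 7.19 CPM in the 7 and 101, 51.2, 35, 55.8 and 84.3 CPM in the 5. Slc8b1, the mitochondrial sodium-calcium exchanger, Hibch, of valine breakdown, and Dph5, of diphthamide synthesis, differed by -5.68, -4.94 and -4.60. All 5 of these genes belong to the gained class. In the other direction, the highest differences were those of Vmn2r-ps61, a pseudogene, and Frk, a tyrosine kinase, at 6.10 and 5.30. Vmn2r-ps61 had 5.13 to 58.1 CPM in the 7 and at most 0.341 CPM in the 5. Frk had 9.96 to 38 CPM in the 7 and at most 1.41 CPM in the 5. Both are in neither the lost nor the gained class, and so are Serpinb3a, Spag16 and Pbx2, which were also among the 10 highest. Muc20, a mucin, and Pparg, a nuclear receptor, had at most 0.137 and 0.404 CPM in the 5. In the 7 Muc20 had 5.65 to 48.4 CPM and Pparg 7.15 to 19.4 CPM. Stk32b, a kinase gene, and Nlrp4g, of the oocyte NLRP family, were higher by 4.87 and 4.69, and with Muc20 and Pparg they belong to the lost class.

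Lineage and chromatin regulators were mixed. Of 27 embryonic transcription factors, 3 were apart and higher and 4 apart and lower, against 7.78% and 8.53% of all genes. The median was -0.22. Tead4, needed for the trophectoderm, had 15.8 to 63.4 CPM in embryos 42 to 48 with a median of 41.1. In embryos 37 to 41 it had 227, 190, 180, 133 and 210 CPM, and WT embryos had a median of 146 CPM. Myc, a growth regulator, had 0 to 14.6 CPM in the 7 and 18.5, 28.3, 21.2, 30.9 and 27.5 CPM in the 5. Pou5f1, the pluripotency factor OCT4, was higher by 2.62, and Nr5a2, a nuclear receptor of genome activation, was at -0.81 and not apart. DNA replication genes had 1 of 32 apart and higher, Orc5 of the origin recognition complex at 2.60, and 5 apart and lower, with a median of -0.73. Among PRC2 genes and partners 2 of 16 were apart and higher and 0 apart and lower, with a median of 0.22. The core subunits Ezh2, Eed and Suz12 differed by 0.83, 0.50 and 0.50 and were not apart. Kdm6b, which removes the PRC2 mark, had 29.8 to 85.8 CPM in the 7 with a median of 46.4, against 11.2, 15.8, 12.9, 2.9 and 20.7 CPM in the 5. Enzymes of DNA methylation and of H3K4 and H3K9 had 4 of 32 apart and higher, 3 apart and lower, and a median of 0.05. The higher ones included Tet3, the oxidase of methylated cytosine in the zygote, at 1.59, and Uhrf1, a partner of DNMT1, at 1.50. The lower ones were Kdm1a, Ehmt1 and Kdm5a, at -1.70, -1.62 and -1.36. Of 7 noncanonical imprinted genes kept, whose maternal copies are silenced through H3K27me3, 0 were apart, and the median was -0.15. Gab1, one of them, had 0 to 7.13 CPM in the 7 with a median of 2.57, and 16.2, 16.5, 16.4, 22 and 0 CPM in the 5. Embryo 41 alone made the Gab1 ranges overlap, and WT embryos had a median of 28.1 CPM. Stress lists had members apart in small numbers, against 7.78% higher and 8.53% lower of all genes. The p53 list had 2 of 20 higher, Ccng1 and Btg2, and 0 lower. Ccng1, a cyclin induced by p53, differed by 2.53 between the sets. Against WT, Ccng1 stood at -0.03 in the 7 and -2.56 in the 5, and Btg2 at 3.24 and 1.46. The integrated stress response had 1 higher and 1 lower of 18, and immediate early and heat shock genes 1 higher and 1 lower of 23.

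Among the matKO embryos, macrophage markers were highest in embryo 41, and cumulus and granulosa markers were higher in most WT embryos. Macrophage markers summed to 59 to 129 CPM in embryos 42 to 48, 42.2 to 4520 CPM in embryos 37 to 41 and 11.2 to 139 CPM in WT embryos. The highest was embryo 41, with Lyz2 at 2640, Apoe at 1100 and C1qc at 127 CPM, and C1qc and Csf1r were at 0 in the other 11 matKO embryos. Of 9 kept, 1 was apart and higher and 0 apart and lower, against 7.78% and 8.53% of all genes. The median difference of the 9 was -0.08, with 4 above 0. The member apart was Mrc1, a receptor of macrophages, with 16.4 to 49.4 CPM in the 7 and 2.53, 6.87, 10.3, 13.5 and 13.3 CPM in the 5. Without embryo 41 the counts of lists given above changed little, with 57 ribosomal protein genes apart and lower and 19 2-cell transcripts apart and higher. Cumulus and granulosa markers summed to 111 to 178 CPM in the 7, 169 to 321 in the 5 and 141 to 2180 in WT. The medians of these sums were 157, 281 and 556 CPM. Amhr2, a marker of this list that belongs to the gained class, averaged 86.8 CPM in the 7, 236 in the 5 and 150 in WT. These sums thus include a gene gained by WT embryos. Of the 22 markers, 8, Cyp11a1, Inhba and Foxl2 among them, were at 0 in all 12 matKO embryos. Cyp11a1 had a median of 93.8 CPM in WT embryos. The mean level of the 12 markers kept had a WT median of 3.54 log2 CPM, against at most 1.26 in the 7 and 1.09 in the 5. Of these 12, 1 was apart and higher, Akr1cl, and 1 apart and lower, Amhr2, against 7.78% and 8.53% of all genes. Oviduct and stroma markers summed to 149 to 314 CPM in the 7, 280 to 417 in the 5 and 185 to 378 in WT, with 0 of 12 apart. Their median sums were 245, 328 and 293 CPM. Sperm markers summed to 15 to 61.6 CPM in the 7, 51.1 to 131 in the 5 and 30.5 to 93.4 in WT, with medians of 25.7, 100 and 47.3 CPM. Of 2 kept, 1 was apart and higher, Prm2, a protamine of sperm chromatin. It had 0.715 to 3.6 CPM in the 7, from 40 counts in all, and 0 counts in each of the 5. The 5 are the deeper libraries, and WT embryos had 0 to 11 CPM of Prm2. The other marker kept, Ldhc, went the other way and was not apart. Ldhc had 13.8 to 57.1 CPM in the 7, from 455 counts, and 51.1 to 123 CPM in the 5, from 2962 counts. The part of other cells in the differences was not tested.

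Whether the 5 embryos near WT still differed from WT was tested with edgeR's quasi-likelihood test, with sex as a term, in 5 against 11 embryos. Because the 5 are what the split left nearest to WT, genes of the main axis are near WT by choice. The split used the values of every gene, called or not, so the p-values of this test are not free of that choice. Besides Ezhip, Hand1 and Trp53bp2 fell in the 5, and Tacr3 rose. Of 13682 genes, 19 were called (0.139%), 8 higher and 11 lower, and 1884 had an unadjusted p under 0.05. Without WT embryo 26 the test called 458 genes, among them the same 19, and without 1 of the 5 in turn it called between 1 and 10. Because no label ties an embryo to a litter or a female, these p-values rest on the spread from library to library, which may be technical in part.

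AU022751 fell by 5.16 ± 0.54 (SE) on the log2 scale (edgeR adjusted p 3.9e-05) and was called whichever of the 5 was left out. Tacr3, the receptor of neurokinin B, had 8.21 to 56.6 CPM in embryos 42 to 48 and 10.1, 18, 6.87, 6.15 and 17.4 CPM in embryos 37 to 41. WT embryos had a median of 0 and a highest value of 0.977 CPM of Tacr3. It rose in the 5 by 5.43 ± 0.96 (SE), with an edgeR adjusted p of 0.026, higher in 5 of 5, and the 7 stood at 5.18 above WT. Hand1, a trophoblast regulator, had 0 to 1.02 CPM in the 7, 0.507, 0.404, 0.404, 0.683 and 0.137 CPM in the 5, and a median of 20.5 CPM in WT embryos. It fell in the 5 by 5.26 ± 1.07 (SE; edgeR adjusted p 0.048), and the 7 stood at -4.45 against WT. Trp53bp2, a partner of p53, fell by 3.01 ± 0.57 (SE; edgeR adjusted p 0.042), and the 7 stood at -2.10. The 7 and the 5 share the WT embryos in these values.

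Some other called genes were also apart between the matKO sets. The split used the values of every gene, and these genes are given here as a description. Akr1cl, of the aldo-keto reductases, stood at -1.64 in the 7 and -3.14 in the 5 against WT. It is one of the cumulus and granulosa markers, whose sums reached 321 CPM in the 5 and 2180 CPM in WT and whose 12 members tested had a median fitted difference of -3.79 in the 5 against WT. Their part in the value of Akr1cl was not tested. Mff, a receptor for mitochondrial fission, had 65.7 to 216 CPM in embryos 42 to 48 with a median of 146, and 38.8, 53, 43.6, 51.5 and 26.8 CPM in embryos 37 to 41. WT embryos had a median of 140 CPM of Mff. The means against WT were -0.10 in the 7 and -1.74 in the 5. Ampd3, an AMP deaminase, stood at 0.50 in the 7 and -1.42 in the 5. Gpr161, a receptor of the hedgehog pathway, stood at -0.39 in the 7 and 1.25 in the 5. Clk1, a splicing kinase, was not apart, at 0.34 in the 7 and 1.47 in the 5. With 1 of the 5 left out in turn, Mff was called in 3 of 5 fits and Clk1 in 2. Ampd3, Tacr3 and Trp53bp2 were called in 1 each, and Akr1cl, Hand1 and Gpr161 in 0.

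**Figure D5:**
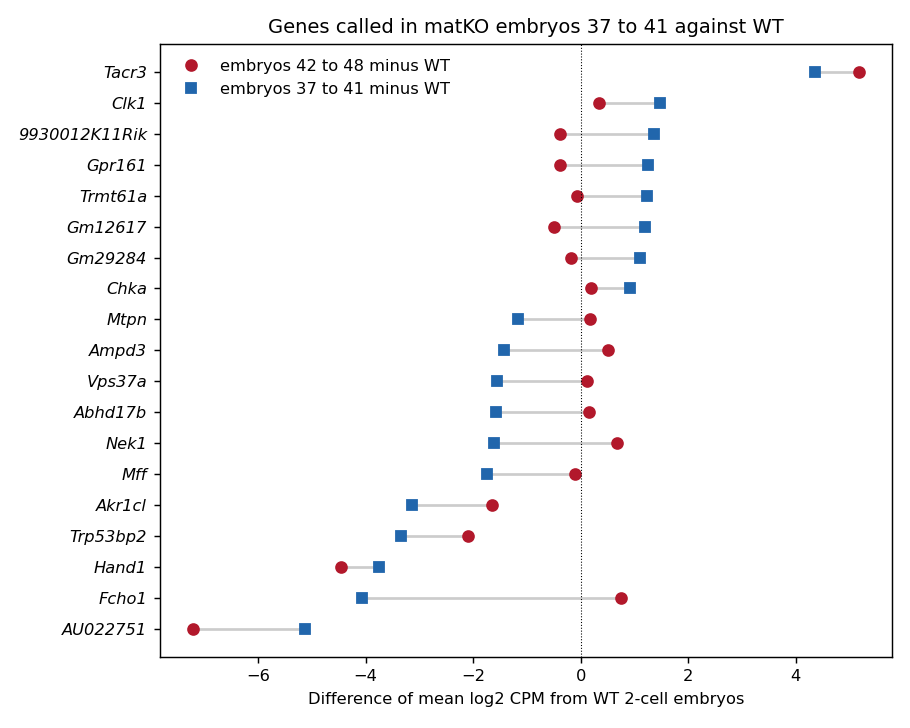
Difference of mean log2 CPM from WT 2-cell embryos (x axis) for the 19 genes called in embryos 37 to 41 against WT (y axis), with circles for embryos 42 to 48 and squares for embryos 37 to 41. Tacr3 stands at 5.18 in embryos 42 to 48 and 4.36 in embryos 37 to 41, and Mff at -0.10 and -1.74.

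Slc26a1, an anion transporter, had 16.6 to 90.7 CPM in the 7 with a median of 60.1, against 0.253, 24.9, 17.8, 44 and 43.4 CPM in the 5 and a median of 1.74 CPM in WT embryos. Embryo 37 was the lowest of the 12, at the level of WT. The difference of Slc26a1 between the matKO sets was 1.88, with overlapping ranges, and 0.76 without embryo 37.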

How the data were processed

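Polyadenylated RNA of single embryos and oocytes was sequenced. Per the submitters' processing notes, Trim Galore, STAR, SAMtools and featureCounts were used with the build mm10. Versions, strand settings and the handling of multimapping reads were not given in the sources used here. The authors deposited whole-number counts per gene for each stage, with other columns such as gene length, and the 2-cell and oocyte tables were used here. Embryos were split by library number, and the embryos and gene lists were chosen with earlier results of these data known.

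Genes were kept by filterByExpr (minimum count 10) in edgeR 4.0.16, which left 14506 of 48320 in 2-cell embryos. Levels are CPM on TMM-scaled totals, and log2 CPM has a prior count of 2. Total counts were 1.48 to 4.65 M in the 7, 4.19 to 11 M in the 5 and 1.05 to 14.1 M in WT embryos. Tests used glmQLFit with robust estimation after estimateDisp, in R 4.3.3, with Benjamini-Hochberg adjustment at 0.05. On simulated counts, 3.7% of genes called in the 5 against WT were unchanged genes (31.2% with the newer edgeR fit), and 55.5% of 4-fold changes were recovered. For WT 2-cell embryos against oocytes 31% of 4-fold changes were recovered. Libraries of a group differed by more than sampling noise, with at least 10.1 chi-square per degree of freedom for each pair. Named genes were the 10 largest differences in each direction among genes apart with a standard symbol and at least 5 CPM on average, up to 4 apart members of each list, a preset group, and up to 6 called genes in each direction of the 5 against WT. Other genes named were chosen after their values were seen. Alternatives were other scalings, filters, prior counts, thinning, each sex alone, DESeq2 1.42.0, and leaving out libraries; leaving out WT embryo 26 was added after seeing the data.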

Additional observations from a re-analysis of the deposited data

Results flagged for a closer look

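Within the sets of 7 and 5, single embryos lay far from the others of their set in 21 of 202 comparisons by Dixon's ratio on the log2 scale, where chance gives about 1 in 20. Among lists, the mean log2 CPM was low in embryo 37 for 2-cell transcripts (4.04), in embryo 48 for embryonic transcription factors (4.52), in embryo 41 for noncanonical imprinted genes (0.511) and in embryo 44 for sperm markers (1.97). It was high in embryo 41 for macrophage markers (6.43).

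Embryo 41 was low in Rfpl4 (1.78 CPM) and Gab1 (0 CPM) and high in Gdf9 (428 CPM), Mybbp1a (820 CPM) and Muc20, where it had 0.137 CPM and the other 4 had 0. Embryo 40, the nearest of the 5 to the 7 on the first component, was high in Tcl1 (1060 CPM) and Cnot7 (466 CPM) and low in Slc8b1 (3.93 CPM). Embryo 43, the nearest of the 7 to the 5, was low in Cnot7 (729 CPM) and high in Hand1 (1.02 CPM). Embryo 45 was low in Zscan4c (12.8 CPM) and high in Slc8b1 (2.05 CPM). Embryo 37 was low in Slc26a1 (0.253 CPM) and Akr1cl (2.79 CPM). Embryo 39 was high in Frk (1.41 CPM), and embryo 48 was high in AU022751 (18.9 CPM).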

How the results depend on the processing

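Library order, depth and set move together, and every gene was used by the split, so stability under these settings says nothing of how the sets arose. Counts of genes apart were 2609 higher and 2818 lower with male embryos alone and 2889 and 2677 with female embryos alone, where ranges of fewer embryos overlap less often by construction. The median of the lost class was 0.85 with males, 1.33 with females and 0.93 after thinning, and that of the gained class was -0.82 with females. Leaving out 1 of the 12 embryos in turn gave 1115 to 1445 genes apart and higher, 1228 to 1581 lower, medians of 1.018 to 1.166 for the lost class and -0.711 to -0.551 for the gained class.

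For the 5 against WT, 19 genes were called, 177 with the newer edgeR fit, 519 with DESeq2, 72 without the sex term, 283 with all 23 embryos in 3 groups, 1 to 10 without 1 of the 5, and 458 without WT embryo 26. Label numbers are shared by 5 pairs of embryos, whose deviations correlated by 0.019 to 0.123, so they were not taken as pairs. With the replicate number as a block 271 were called, and 7 in the same 10 embryos without the block. Genes lower in WT 2-cell embryos than in oocytes numbered 3831 with no filter. Over all settings, 101 differences of named genes moved by more than the spread within sets, 2065 did not, and 0 of those apart changed sign, while Hspa1a and AU022751, which were not apart, changed sign in 1 setting each; 14 list medians moved and 411 did not. The cause was not tested. Depth limits calls of genes at low CPM in the 7.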
